A study of Arabidopsis thaliana with 96 samples.

Results

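Small RNA reads over the AGAMOUS enhancer and promoter were compared in 8 libraries of young Arabidopsis thaliana flowers, out of 96 in the series. The libraries are those with 3 titles in set B, and no read count entered that rule. They comprise 3 of Col (the Columbia accession with no cassette named), 3 of Col_ARE//AGe (Col transformed with the ARE//AGe cassette) and 2 of kan1-11_ARE//AGe (the same cassette in a kan1-11 mutant), titled A and B. All came from set B, which holds 32 libraries in 11 groups made with the Illumina TruSeq small RNA kit. All 8 were of flower class Wt, and the treatment field reads floral structure change for every group. Per the labels' protocols, flowers of several lines with 1 phenotype were pooled for each replicate, so a library with a cassette is a pool of lines and not a single line. The sources used here do not give the promoters inside the cassettes, the age of the plants at harvest or what ARE stands for; the title of the series names an anti-RdDM element, RdDM being RNA-directed DNA methylation. Set B has no kan1-11 library without a cassette, so the mutation and the cassette cannot be told apart when kan1-11_ARE//AGe is set against Col. The letters A and B do not say whether these libraries are replicates, and each is given singly. With 2 regions counted, neither the tissue nor the kan1-11 genotype could be checked against marker genes.

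AGAMOUS (AG, AT4G18960) encodes a MADS-box transcription factor that specifies stamens and carpels and ends the growth of the floral meristem. Its expression depends on an enhancer inside a long intron, where LEAFY (LFY) and WUSCHEL (WUS), both floral regulators, bind to activate it. In RNA-directed DNA methylation, small interfering RNAs cut from double-stranded transcripts guide DNA methylation to matching DNA, and a transgene copy of a regulatory region can become a source of such RNAs. KANADI1, the gene mutated in kan1-11, encodes a transcription factor best known for setting the abaxial side of leaves and floral organs.

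The enhancer region, AGe, covered chr4:10384147-10387145 of TAIR10 (2999 bp, plus strand of AG), and the promoter region, AGp, covered chr4:10380701-10382800 (2100 bp). AGe began at the first base of intron 2, as its first bases show: in the stretch chr4:10384132-10384191 the capitals mark the end of exon 2, which lies just outside the counted region.

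AGe start: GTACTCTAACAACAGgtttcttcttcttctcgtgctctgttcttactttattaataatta

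The window chr4:10386471-10386670 was chosen because it held the most matches in AGe, and its capitals mark the letters CCANTG (the LFY motif) and TTAATGG (the WUS motif), searched on both strands.

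AGe window: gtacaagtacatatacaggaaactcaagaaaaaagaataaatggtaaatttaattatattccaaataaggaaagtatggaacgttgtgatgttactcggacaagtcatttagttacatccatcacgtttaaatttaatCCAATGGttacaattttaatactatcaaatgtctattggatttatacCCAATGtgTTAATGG

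This window held 3 LFY matches, of which the first pair overlap on opposite strands, and 1 WUS match just after the third. At least 1 LFY match occurred in 22.9% of 594683 windows of 200 bases tiled over the nuclear chromosomes and at least 1 WUS match in 3.37%. These shares are for unchosen windows and are no measure of a window picked for its matches. The whole of AGe held 6 LFY matches, 3 of them outside this window, and 1 WUS match. AGe coincided with the whole of intron 2 in 1 of the 4 annotated transcripts. In the other 3 its last part holds exon 3, 90 bp long, and 74 bp of intron 3, so reads from those messenger RNAs would be counted there. In the stretch chr4:10386967-10387086 the capitals mark this exon.

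AGe exon: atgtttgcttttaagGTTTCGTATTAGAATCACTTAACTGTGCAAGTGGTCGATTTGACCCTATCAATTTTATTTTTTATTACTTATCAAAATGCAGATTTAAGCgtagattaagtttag

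AGp ended 56 bp before the annotated start of AG and overlapped no annotated gene. The whole of AGp held 1 LFY match and 1 WUS match. Its last 200 bases, chr4:10382601-10382800, are shown as the part nearest the gene, and neither motif occurred in them.

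AGp window: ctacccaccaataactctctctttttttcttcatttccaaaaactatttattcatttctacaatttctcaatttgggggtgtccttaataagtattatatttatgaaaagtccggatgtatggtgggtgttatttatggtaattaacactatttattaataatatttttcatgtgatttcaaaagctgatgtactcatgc

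Sequences and annotation are from the RefSeq copy of this genome (TAIR10.1), in which exon 2 of AG ends 1 base before AGe starts. Of the words of 24 bases in the regions all occurred once in the reference genome, and of those of 21 bases 99.6% in AGe and 99.66% in AGp. A transgene copy and the endogenous copy share these coordinates, so their reads are counted together.

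**Figure D1:**
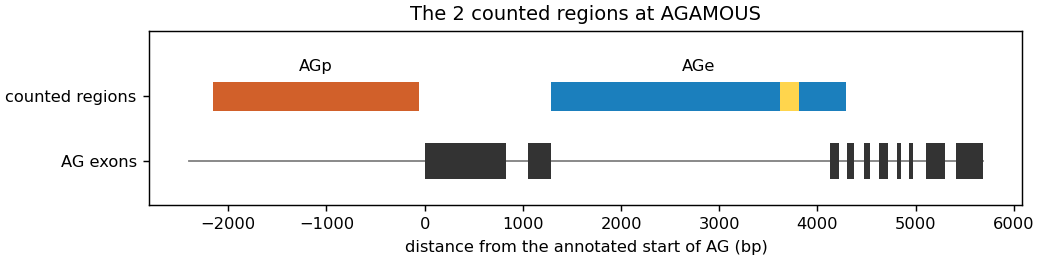
The counted regions AGp (orange) and AGe (blue) and the exons of AG (black, 1 transcript), plotted to scale by distance from the annotated start of AG in bp. AGp ends 56 bp before the start of AG, and AGe runs from the first base of intron 2 past exon 3; yellow marks the 200 bases with the LFY and WUS motif letters.

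Mapped reads ran from 5816805 to 16690044 per library, and values are reads per 1000000 mapped reads (RPM) unless another base is named. A count of 0 is given the limit of 3 reads, which is 0.180 to 0.516 RPM here. Intervals in brackets are two-sided exact Poisson intervals (95%) for one library and, like this limit, cover counting error only.

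Col_ARE//AGe flowers held fewer small RNA reads over both regions than Col flowers without a cassette. Over AGe, Col replicates 1, 2 and 3 held 67, 61 and 163 reads, or 8.64 RPM (6.70 to 11.0), 10.5 (8.02 to 13.5) and 12.0 (10.2 to 14.0). The Col_ARE//AGe replicates held 44, 33 and 34 reads, or 3.12 RPM (2.26 to 4.18), 3.36 (2.31 to 4.72) and 2.47 (1.71 to 3.45). The groups did not overlap, and the lowest Col library stood above the upper counting limit of every Col_ARE//AGe library. AGe fell to 0.285 of the Col level (log2 change -1.81 ± 0.38 SE, 95% interval of the ratio 0.168 to 0.485, edgeR quasi-likelihood adjusted p = 3.37e-05). This fit used all set B libraries, and the 8 libraries alone gave an interval of 0.110 to 0.746 (edgeR adjusted p = 0.0234). Both regions passed in this comparison (2 of 2, 100%); with 2 regions counted there is no wider background to read this against.

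Over AGp the Col replicates held 42, 45 and 65 reads, or 5.42 RPM (3.91 to 7.32), 7.74 (5.64 to 10.4) and 4.79 (3.70 to 6.11). The Col_ARE//AGe replicates held 7, 0 and 11 reads. These were 0.496 RPM (0.199 to 1.02), 0 (0 to 0.376, limit of 3 reads 0.306) and 0.798 (0.398 to 1.43). Again no library of one group reached the other. AGp fell to 0.0787 of the Col level (log2 change -3.67 ± 0.53 SE, 95% interval of the ratio 0.0375 to 0.165, edgeR adjusted p = 3.57e-08). The 8 libraries alone gave an interval of 0.0249 to 0.237 (edgeR adjusted p = 0.00144). The size rests on 18 reads in all: without replicate 3 of Col_ARE//AGe the log2 change was -4.38, without replicate 2 it was -3.19, and limma on log2(RPM + 1) gave -2.31.

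**Figure D2:**
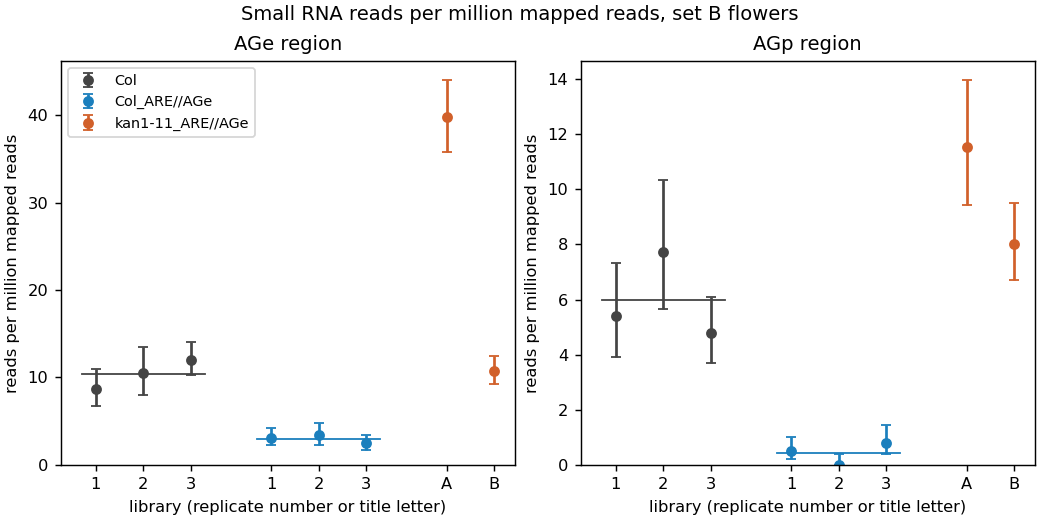
Reads per 1000000 mapped reads over AGe (left) and AGp (right) in the 8 libraries, linear axes from 0. Points are libraries with exact Poisson 95% intervals and lines are means of 3 libraries; the Col_ARE//AGe libraries lie below all others in both panels, and kan1-11_ARE//AGe A is the highest.

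The alignment classes of Col and Col_ARE//AGe overlapped. The share of mapped reads with more than 1 alignment was 54.7%, 56.4% and 55.8% in Col and 55.2%, 56.5% and 55.2% in Col_ARE//AGe. The difference in means was 0.0272 points, and the 2 ranges overlapped (two-sided exact permutation p = 0.9, 20 arrangements). Taken per read aligned once, the falls had nearly the same size and again 2 of 2 regions passed (100%): the log2 change of AGe was -1.81 ± 0.40 SE (edgeR adjusted p = 5.22e-05), and that of AGp was -3.68 ± 0.54 SE (edgeR adjusted p = 3.41e-08). On this base the 8 libraries alone gave an edgeR adjusted p of 0.0189 for AGe and 0.00118 for AGp.

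AGp took a smaller part of the reads of both regions in each Col_ARE//AGe library than in any Col library, a difference that could not pass the threshold with so few libraries. This share needs no library size. AGp reads were 38.5%, 42.5% and 28.5% of AGe plus AGp reads in Col replicates 1, 2 and 3, and 13.7%, 0% and 24.4% in those of Col_ARE//AGe. The groups did not overlap, and the means differed by -23.8 points (two-sided exact permutation p = 0.1, the smallest that 3 against 3 libraries can give, adjusted p = 0.3 over 3 comparisons). The Clopper-Pearson interval of Col_ARE//AGe replicate 3, 12.9% to 39.5% on 45 reads, reached those of all Col libraries. Per kb of region, AGp had 0.895, 1.05 and 0.569 times the read density of AGe in Col, and 0.227, 0 and 0.462 times in Col_ARE//AGe.

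The level of Col itself differed between sets. Col of set C, another set of libraries, held 1.03 ± 0.143 RPM of AGe and 0.477 ± 0.205 of AGp (SD, n = 3), both below Col of set B, with AGp at 30.9% ± 5.98 of the reads of both regions. The Col_ARE//AGe mean of set B lay between these Col means for AGe (2.98 ± 0.463 RPM), and for AGp (0.431 ± 0.403 RPM) within 1 SD of Col of set C (SD, n = 3). The set letter of the labels marks the kit and library group. Why Col of set B stood higher was not tested, and the falls above are relative to it.

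Small RNA reads over AGe and AGp were more abundant in each of the 2 kan1-11_ARE//AGe libraries than in any Col_ARE//AGe library. Over AGe, library A held 359 reads or 39.8 RPM (35.8 to 44.1) and library B 180 reads or 10.8 RPM (9.27 to 12.5). Over AGp, library A held 104 reads or 11.5 RPM (9.42 to 14.0) and library B 134 reads or 8.03 RPM (6.73 to 9.51). Each lay above all 3 Col_ARE//AGe libraries. Fitted as 1 group, AGe rose 8.45-fold (95% interval 4.79 to 14.9, log2 change 3.08 ± 0.41 SE, edgeR adjusted p = 6.31e-09) and AGp 20.9-fold (9.80 to 44.8, log2 change 4.39 ± 0.54 SE, edgeR adjusted p = 2.59e-09), 2 of 2 regions passing (100%).

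Taken one at a time, both libraries stayed above Col_ARE//AGe. The AGe log2 change was 3.74 for A alone and 1.86 for B alone, and for AGp it was 4.63 and 4.10. A lone library shows no spread of its own, so only the size of its change is given. The AGp fold rests on the same 18 reads of Col_ARE//AGe as above: its log2 change was 5.10 without replicate 3 of Col_ARE//AGe, and limma on log2(RPM + 1) gave 2.93, and 2.47 for AGe.

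Libraries A and B differed from each other far beyond counting error over AGe. A held 3.69 times the AGe level of B (exact interval 3.08 to 4.44) and 1.44 times its AGp level (1.10 to 1.87). AGp reads were 22.5% (Clopper-Pearson 18.7% to 26.5%) of the reads of both regions in A and 42.7% (37.1% to 48.4%) in B. In this share B stood just above the highest Col library, while A stood below all Col libraries and within the range of Col_ARE//AGe, so that the mean of 32.6% describes neither. Against Col_ARE//AGe the mean share differed by 19.8 points with overlapping ranges (two-sided exact permutation p = 0.3), and against Col by -3.93 points (p = 0.7, same test). With 2 against 3 libraries the smallest possible p is 0.1.

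Against Col flowers without a cassette, the excess of kan1-11_ARE//AGe depended on the library and on the base of the rate. Per mapped read 1 of 2 regions passed (50%), AGe being 2.41-fold higher (1.41 to 4.13, log2 change 1.27 ± 0.39 SE, edgeR adjusted p = 0.00244). This rested on library A, since A alone gave a log2 change of 1.93 and B alone one of 0.049, B lying within the range of the Col libraries. With only the 8 libraries in the fit the edgeR adjusted p was 0.0920. AGp per mapped read did not pass the test, with a ratio of 1.65 (0.878 to 3.09, edgeR adjusted p = 0.117), although both libraries lay above the highest Col library.

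Per read aligned once, both libraries exceeded Col over both regions, and 2 of 2 regions passed (100%). Library A held 373 AGe reads per 1000000 reads aligned once (335 to 414) and B 94.2 (80.9 to 109), against 19.1, 24.1 and 27.2 in Col and 6.96, 7.73 and 5.51 in Col_ARE//AGe. For AGp, A held 108 (88.3 to 131) and B 70.1 (58.7 to 83.0), against 12.0, 17.8 and 10.8 in Col and 1.11, 0 and 1.78 in Col_ARE//AGe. AGe rose 9.86-fold over Col (5.47 to 17.8, edgeR adjusted p = 1.91e-09) and AGp 6.64-fold (3.47 to 12.7, edgeR adjusted p = 6.86e-07). The 8 libraries alone gave 3.38 to 29.1 for AGe (edgeR adjusted p = 0.00118) and 2.25 to 19.4 for AGp (edgeR adjusted p = 0.00353). A alone gave a log2 change over Col of 3.99 in AGe, and B alone gave 2.00 in AGe and 2.40 in AGp. Over Col_ARE//AGe, where 2 of 2 regions also passed (100%), AGe stood 34.6-fold higher on this base (18.3 to 65.3) and AGp 85.0-fold (38.5 to 187), with an edgeR adjusted p of 9.19e-14 in each case. With the 8 libraries alone the edgeR adjusted p was 0.000138 for AGe (10.9 to 110) and 9.31e-05 for AGp (24.1 to 314). The log2 changes over Col_ARE//AGe, 5.11 and 6.41, ran from 3.81 (B alone) to 5.80 (A alone) for AGe, and from 5.94 (without replicate 2 of Col_ARE//AGe) to 7.12 (without its replicate 3) for AGp, as single libraries were left out. For AGp, limma gave 5.61 with 1 added to the values and 7.16 with 0.1 added.

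**Figure D3:**
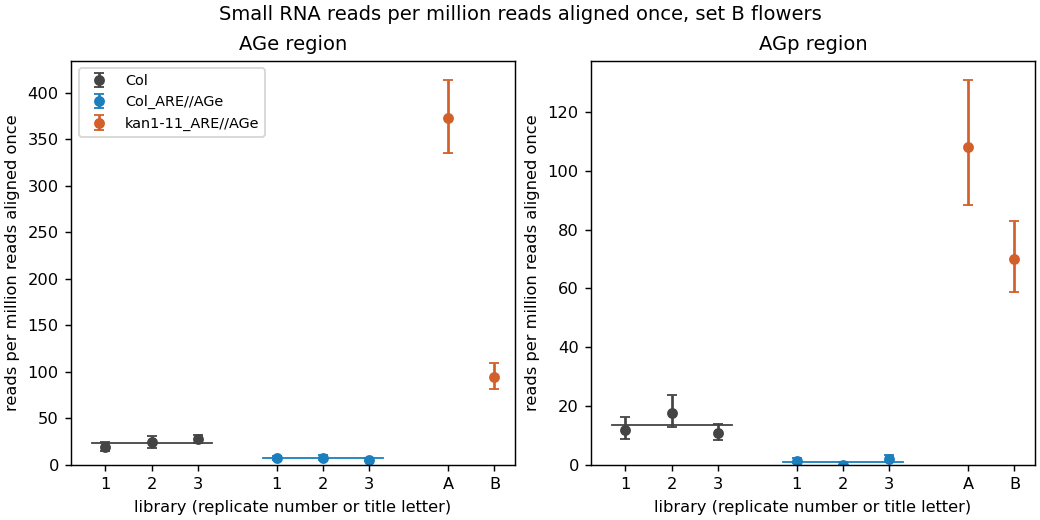
Reads per 1000000 reads aligned once over AGe (left) and AGp (right), linear axes from 0, points with exact Poisson 95% intervals and lines at the means of Col and Col_ARE//AGe. Both kan1-11_ARE//AGe libraries lie above the 6 Col and Col_ARE//AGe libraries, A at 373 and B at 94.2 over AGe.

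Few reads of kan1-11_ARE//AGe aligned once, which separates the values on the 2 bases. In A 89.3% and in B 88.5% of mapped reads aligned more than once, leaving 962777 and 1911194 reads aligned once, against 2535146 to 6322844 in the other 6 libraries. The mean share exceeded that of Col_ARE//AGe by 33.3 points, with no overlap (two-sided exact permutation p = 0.1, the smallest possible, adjusted p = 0.15 over 3 comparisons), and that of Col by the same 33.3 points. Mapped reads were 97.7% and 97.0% of all reads in A and B, and 95.6% to 97.2% in the other libraries, so the share of reads that mapped differed little. The kan1-11 flowers without a cassette, which stand in set C, had a share of 51.7% ± 1.73, and Col of that set had 48.9% ± 0.556 (SD, n = 3). These kan1-11 flowers held 1.02 ± 0.522 RPM of AGe and 0.505 ± 0.109 RPM of AGp (SD, n = 3), beside 1.03 ± 0.143 and 0.477 ± 0.205 RPM in Col of set C; they were not tested against the libraries of set B. In set B the share was 91.4% ± 0.766 in met1-1 and 73.9% ± 0.432 in ddm1-1 flowers without a cassette (SD, n = 3). With ARE//AGe the mean share was 80.8% (flower class sMf) and 86.5% (rMf) in met1-1, and 74.8% (sMf) and 86.7% (rMf) in ddm1-1. With Ctr//AGe (rMf) it was 74.0% in met1-1 and 93.6% in ddm1-1. Every mutant group of set B thus had a higher share than Col and Col_ARE//AGe, so a high share was not particular to kan1-11_ARE//AGe. Which loci the reads with several alignments came from cannot be seen in these counts, and the part of this class in the kan1-11_ARE//AGe result was not tested.

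**Figure D4:**
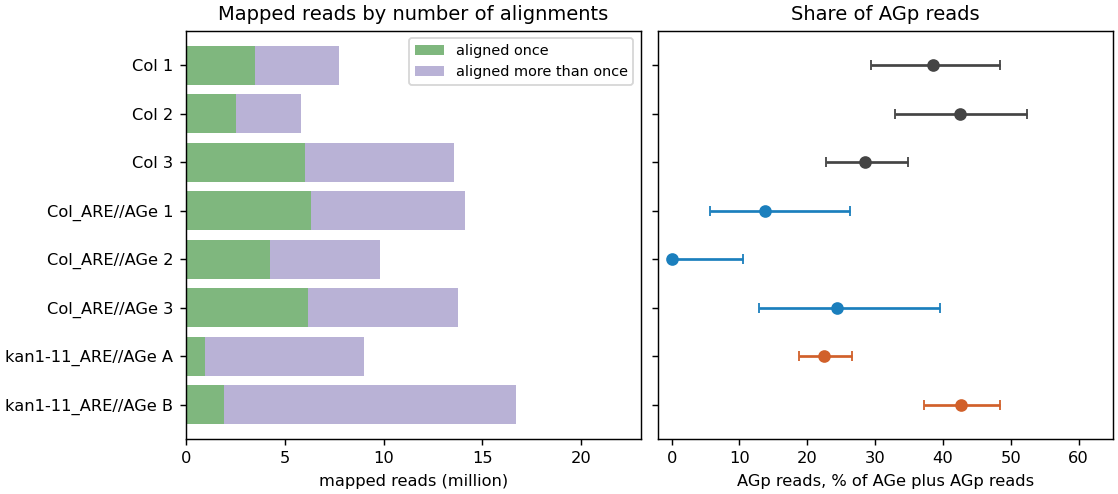
Left, mapped reads of each library, split into reads aligned once (green) and more than once (violet); right, AGp reads as percent of AGe plus AGp reads with Clopper-Pearson 95% intervals. The green part is 10.7% and 11.5% of mapped reads in kan1-11_ARE//AGe A and B and 43.5% to 45.3% in the other 6 libraries.

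The AGp share of library B, 42.68%, lay just above the highest of the other ARE//AGe mutants of set B, 42.66%. That of library A lay below their range. In the 12 libraries of set B with ARE//AGe in met1-1 or ddm1-1, of flower classes sMf and rMf, AGp was 38.4% to 42.7% of the reads of both regions. Both kan1-11_ARE//AGe libraries stood at far lower levels than these, whose group means for AGe lay between 1162 and 5430 RPM. In the 6 libraries with Ctr//AGe in the same mutants the AGp share was 0.384% to 1.20%. In the ARE//AGe mutants of set C it was lower than in those of set B, from 28.4% (hdp2-1, rMf) to 38.3% (suvh1-2, sMf). In set B flowers without a cassette it was 28.5% to 42.5% in Col, 28.6% to 39.0% in met1-1 and 31.2% to 39.4% in ddm1-1. Each of these ranges without a cassette overlapped that of the ARE//AGe mutants of set B, so such shares also occurred without a cassette. These shares are given side by side, and no difference between them was tested.

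**Figure D5:**
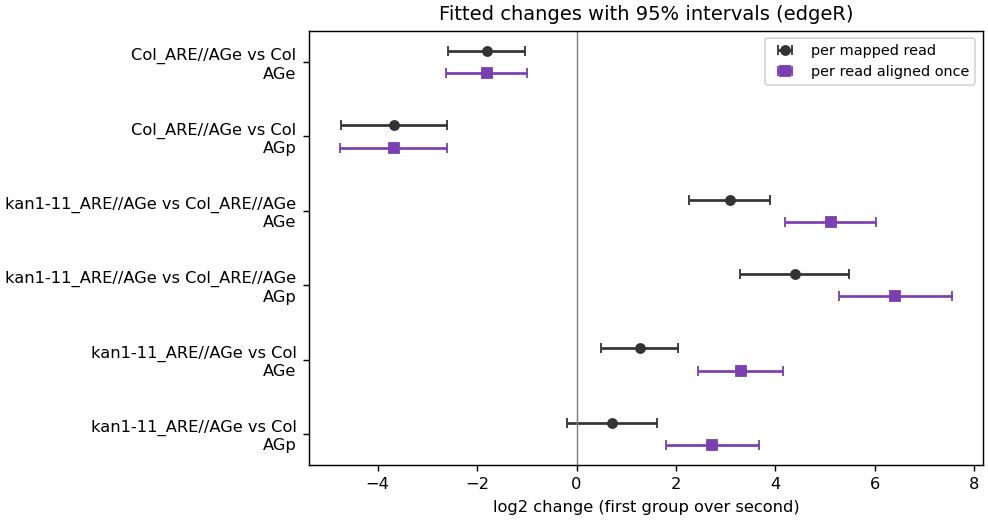
Log2 changes from the edgeR fit over all set B libraries with 95% intervals, for 3 comparisons and 2 regions, per mapped read (black circles) and per read aligned once (violet squares). The bases coincide for Col_ARE//AGe against Col (-1.81 and -1.81 for AGe) and part wherever kan1-11_ARE//AGe enters (1.27 and 3.30 for AGe against Col).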

How the data were processed

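Small RNA libraries were made from total RNA of young flowers. The submitters' processing notes name Bowtie, HTSeq 0.13.5 and TAIR10. How reads were trimmed or selected by size, and how reads with several alignments were counted, is not stated in what was used here. The deposited table holds counts of total, mapped, once aligned and more than once aligned reads and of reads in each region, per the file headers. The authors also deposited RPM, which equalled region counts per 1000000 mapped reads in all 96 libraries within 1e-06, and an alignment rate in percent, which stood 0.493 to 0.661 points above mapped over total counts in the 8 libraries; the counts were used. The promoter column is headed AG promoter or M2 under 1 pair of coordinates and is called AGp; what M2 means is not given.

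The test was the two-sided quasi-likelihood F test of edgeR 4.0.16 with a common dispersion (R 4.3.3). All 32 set B libraries entered 1 fit with a mean per group, with mapped reads or reads aligned once as library size. A test therefore rests on the spread shared by the 11 groups and the 2 regions, not that of the compared groups alone. Each library enters this spread through both regions, taken as independent. This gave 42 degrees of freedom in the main fit and 10 with the 8 libraries alone. Where AGe and AGp vary together within a library, the standard errors, intervals and p-values could be too small. Adjusted p are Benjamini-Hochberg values over 6 tests per library size (threshold 0.05). The 3 comparisons share groups, so they are not independent. The 2 kan1-11_ARE//AGe libraries were fitted as 1 group. Shares were compared by exact permutation over libraries (scipy 1.17.1). The fit was tested on simulated data with the same dispersion in every group. The groups outside the comparisons were simulated at a level near that of Col, whereas real group means for AGe reached 5430 RPM. Such data cannot show whether the real groups share a common spread, or how groups at high levels affect it. All 7 pairs of libraries within a group differed beyond sampling noise in their read classes (chi-square of at least 1059), and each was kept as its own sample. Other settings tried were a library size of total reads, a minimum of 10 reads, DESeq2 1.42.0, limma 3.58.1 on log2 values with pseudocounts of 1 and 0.1, the 8 libraries alone, a replicate block and each library left out. With 2 regions both are named. The labels do not say whether replicates share lines. The edgeR p-values measure the spread between libraries within all 11 groups of set B, pooled over both regions, not within the compared groups alone. Per mapped read the common dispersion was 0.0779 in this fit and 0.166 with the 8 libraries alone. The permutation p-values use only the compared libraries. In bulk flowers, fewer cells with small RNAs and fewer small RNAs per cell cannot be told apart. The libraries, regions and tests were chosen with earlier results of these data known.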

Additional observations from a re-analysis of the deposited data

How the results depend on the processing

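Of 140 alternative values for the 12 tests on region counts, 137 kept the direction and the side of the threshold. The others all concerned kan1-11_ARE//AGe against Col. AGe per mapped read kept a log2 change of 1.28 with the 8 libraries alone but missed the threshold (edgeR adjusted p = 0.0920). It ran from 0.049 to 1.93 as single libraries were left out, the lowest, without library A, being another of these. AGp per read aligned once became 0.74 with total reads as library size (edgeR adjusted p = 0.108), a base on which the small share of reads aligned once no longer enters. On total reads AGe kept its side of the threshold (edgeR adjusted p = 0.00217), but its log2 change was 1.29 in place of 3.30. Limma on log2(RPM + 1) gave AGp changes of -2.31 for Col_ARE//AGe against Col and 2.93 for kan1-11_ARE//AGe against Col_ARE//AGe, in place of -3.67 and 4.39; the added constant shrinks the change of a region with so few reads.

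Col and Col_ARE//AGe share replicate numbers, but the deviations of same-numbered libraries from their group means had opposite signs at all 3 numbers for AGp and at numbers 1 and 3 for AGe, and the same sign at number 2 for AGe (0.139 and 0.024). With the replicate number as a block and the kan1-11 libraries left out, the log2 changes were -1.80 for AGe and -3.68 for AGp per mapped read, and -1.79 and -3.69 per read aligned once, and no call changed. The minimum of 10 reads left out no region. Scaling estimated from the features themselves was not run, since only 2 regions were counted.

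The difference in the share aligned more than once between Col_ARE//AGe and Col had no stable sign: it was -0.0417 points with reads summed over the libraries, and ran from -0.446 to 0.422 as libraries were left out. The AGp share of kan1-11_ARE//AGe minus that of Col ran from -14.0 points without library B to 6.18 points without library A. Depth limits AGp in Col_ARE//AGe replicate 2, where 0 reads leave a limit of 0.306 RPM (3 reads).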
